A study of Mus musculus with 11 samples.

Results

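The interleukin-1 (IL-1) family members followed here are the cytokine genes *Il1a*, *Il1b*, *Il18* and *Il33*, the receptor antagonist *Il1rn*, the signalling receptor *Il1r1*, the decoy receptor *Il1r2* and the accessory chain *Il1rap*. They were chosen by name as the core IL-1 ligands, receptors and antagonist, and make up 8 of the 24421 genes in the count tables. The study profiled mouse epidermal keratinocytes with RNA sequencing and with ATAC-seq, which marks accessible chromatin, to ask how the transcription factor GRHL3 bears on the response to skin wounds. Keratinocytes were sorted by the integrin CD49F, with cells bearing the markers of leukocytes, endothelium and erythroid cells removed. The RNA libraries were 2 from WT unwounded skin, 2 from WT wounds, 1 from unwounded skin labelled GRHL3 KO and 2 from wounds labelled GRHL3 KO. Each condition also had 1 ATAC-seq library, a pool of 4 wounds from 2 mice by the figure legend.

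All mice were 8 weeks old, of both sexes, and of a strain given as C57BL/6 in the labels and C57BL/6J in the methods. Per the methods, the GRHL3 KO mice carried floxed *Grhl3* alleles and a Cre driven by the keratin 14 promoter, so that deletion was directed to keratin 14 expressing epithelia, and the WT littermates are described as carrying the same Cre. Wounded cells came from the margin of punch wounds at day 3, and unwounded cells from distant skin.

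IL-1 alpha and IL-1 beta signal through IL1R1 paired with IL1RAP, and reach NF-kB and MAP kinases by way of MYD88 and IRAK kinases. IL1RN occupies the receptor without signalling, and IL1R2, which lacks a signalling tail, traps the ligand and the accessory chain. Keratinocytes are known to store IL-1 alpha and IL-33 and to release them on injury, so the family is often described as an early alarm of damaged epidermis.

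Library sizes, as counts on genes, were 15488699 and 16807451 for WT unwounded 1 and 2, and 16653948 and 15418631 for WT wounded 1 and 2. They were 13497283 for the unwounded library labelled GRHL3 KO, and 15223569 and 14279568 for wounded 1 and 2 with that label. Of the genes listed, 14045 passed the expression filter and were tested, among them all 8 members. A gene could pass through 1 library alone, so passing says nothing about a difference. The common biological coefficient of variation was 31.6%. The smallest two-sided p of an exact permutation test with 2 libraries on each side is 0.333, which is why edgeR, with a spread estimated over many genes at once, was used. A floor of 3 counts corresponded to 0.178 to 0.222 CPM (gene counts scaled to the same library total), and it covers counting error only.

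*Grhl3*, the targeted gene, was at 122 and 83.2 CPM in WT unwounded, 110 and 90 CPM in WT wounded, 76.2 CPM in the unwounded library labelled GRHL3 KO and 116 and 104 CPM in its wounded counterparts. The wounded groups overlapped (log2 fold change 0.17 with a standard error, SE, of 0.21 and adjusted p = 1). Counts were made over the entire gene and do not show which exons were read, and genotypes are named as labelled throughout. The study gives qPCR of the floxed region and GRHL3 staining as its checks of the deletion. The unwounded library labelled GRHL3 KO also stood apart in sex-linked genes. It had 14854 counts of *Xist* and 0 counts over 4 Y-linked genes, against 3 to 32 and 2580 to 3589 in the other 6 libraries. Its replicate number is 2 in its title and 1 in the name of its data. Sex, animal and condition cannot be told apart for that library. Counts over both genotypes or both treatments are also given without it for the members and the pathway lists, while the 2-fold rule cannot be run without it.

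Keratinocyte markers dominated every library. The leading or most abundant gene of each list is the one with the highest mean CPM over the libraries, with no correction for gene length. The 10 keratinocyte markers summed to between 46800 and 63800 CPM, led by *Krt14* at 12200 to 19400 CPM. The 6 leukocyte markers summed to at most 2.07 CPM, with *Cd52* the most abundant and *Tyrobp* and *Fcer1g* at 0 in all libraries. The 8 macrophage and monocyte markers summed to at most 8.11 CPM, led by *Cd68*, with *C1qa* at 0. Erythroid markers summed to at most 0.91 CPM, all of it from *Alas2*, while the other 4 were at 0.

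Other marker lists held some signal. For neutrophils, 7 of 8 listed genes were in the files, and their sum was 1.04 CPM in the unwounded library labelled GRHL3 KO and 8.47 to 28.3 CPM in the others. *S100a9*, which keratinocytes also make, led that list, and *Ngp* and *Retnlg* were at 0. The Langerhans and dendritic list summed to 221 to 474 CPM, mostly *Epcam*, a gene that keratinocytes share, with *Itgax* at 0. For T cells, 5 of 7 genes were in the files, *Cd3e* and *Cd2* were at 0, and nearly all of the 26.2 to 68.8 CPM came from *Thy1*. Fibroblast markers, led on average by *Col3a1*, summed in the library order used for *Grhl3* to 28.7, 14.5, 19.6, 47.8, 11, 26.1 and 37.8 CPM. Wounded and unwounded libraries overlapped. *Col3a1* did not lead in every library. In the unwounded library labelled GRHL3 KO it was at 0.296 CPM, against 7.63 CPM for *Col1a2*.

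Sums of 3 marker lists separated wounded from unwounded libraries. Endothelial markers summed to 3.49 and 5 CPM in WT unwounded, 26.8 and 11 CPM in WT wounded, 0.889 CPM in the unwounded library labelled GRHL3 KO and 12 and 17.4 CPM in its wounded counterparts. *Vwf* had the highest mean CPM of these genes, though *Cdh5* (6.42 CPM) and *Pecam1* (6 CPM) were above it (4.56 CPM) in WT wounded 1. In the sums every wounded library was above every unwounded one. Melanocyte markers, led by *Mitf*, summed in the same library order to 36, 36.7, 34.8, 24.8, 54, 30.7 and 28.4 CPM, with every wounded library below every unwounded one. That order comes from *Mitf*, since *Dct* was higher in every wounded library, at 2.4 to 4.74 CPM against 0.238 to 0.775 CPM. Of the melanocyte markers, 2 were higher and 1 was lower after wounding in WT by unadjusted P. Hair follicle markers, led by *Krt15*, summed to 5880, 5220, 4600, 3680, 6770, 3710 and 4580 CPM, again lower in each wounded library. Their part in the results for the IL-1 family was not tested. In bulk libraries, fewer cells of a type and less RNA per cell cannot be told apart.

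Levels were compared between members only per kilobase of annotated exon. Averaged over 7 libraries, *Il1rn* was at 31.5 ± 7.7 CPM per kilobase (SD, n = 7), and *Il33* followed at 29.2 ± 11.2. *Il1r2* was at 16.4 ± 7.87, *Il1r1* at 6.63 ± 0.941 and *Il1rap* at 3.28 ± 0.705 CPM per kilobase. *Il1a* was at 1.41 ± 0.334, *Il18* at 1.24 ± 1.34 and *Il1b* at 0.509 ± 0.353 CPM per kilobase. The antagonist, the alarmin and the decoy receptor were thus measured above the signalling receptor on average, with *Il1a*, *Il18* and *Il1b* at the bottom. Neighbours in this order overlapped in range, except that *Il1r1* stayed above *Il1rap* and *Il1rap* above *Il1a* in range over the libraries. These lengths are of the basic annotation set, which for *Il1r2* lacks the exons at 2 of its starts. With the exons of the full annotation, tried after the data were seen, *Il33* came first at 26.4 and *Il1rn* second at 15.4, *Il1r2* was at 12.2, and *Il1rap*, at 2.48 CPM per kilobase, overlapped *Il1a* in range.

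**Figure D1:**
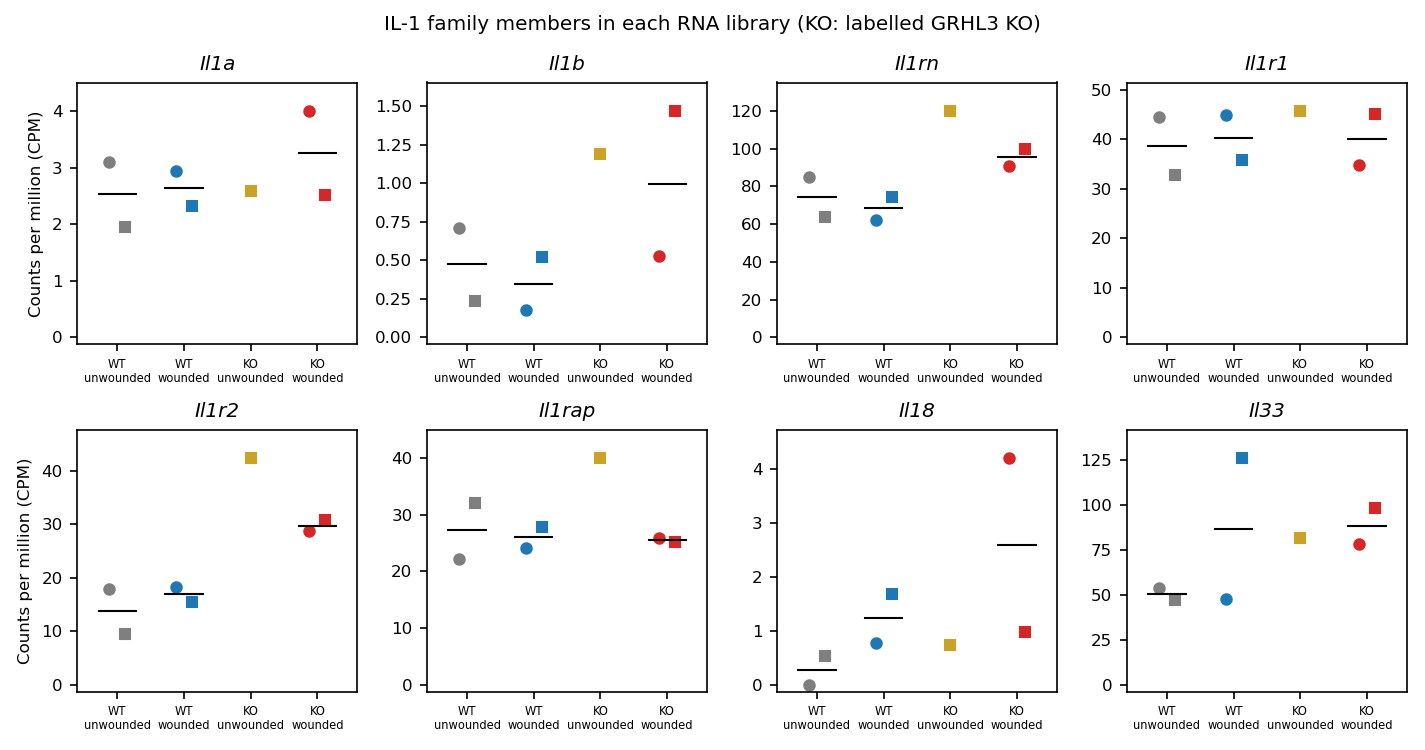
Level of each member in CPM (vertical axes, each with its own scale) in the 7 RNA libraries by group, with circles for replicate 1, squares for replicate 2 and lines for means of 2 libraries. *Il1rn* and *Il1r2* lie higher in the 3 libraries labelled GRHL3 KO than in the 4 WT libraries, and in *Il33* WT wounded 2, at 126 CPM, lies apart from WT wounded 1, at 48 CPM.

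How wounding moved the family in WT skin was asked by comparing WT wounded with WT unwounded keratinocytes. *Il33* was the member with the smallest P, higher by 0.81 on the log2 scale, with 1 of the 2 wounded libraries above both unwounded ones. No member passed the test. An adjusted p under 0.05 by edgeR was reached by 0 of 8 members, against 4 of 14045 genes (0.0285%). With an unadjusted P under 0.05, 1 member was higher, against 3.18% of all genes, and 0 were lower, against 1.67%. DESeq2 gave 24 genes with an adjusted p under 0.05 in this comparison, none of them a member. The median log2 fold change of the members was 0.08, against 0.00 over all genes tested.

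Whether the family differed in wounds labelled GRHL3 KO was asked by comparing them with WT wounds. *Il1r2* and *Il1rn*, both of which restrain IL-1 signalling, were higher by 0.83 and 0.50 on the log2 scale, and each lay higher in both libraries labelled GRHL3 KO than in both WT libraries. Neither passed the test. An adjusted p under 0.05 by edgeR was reached by 0 of 8 members and by 0 of 14045 genes (0%), and DESeq2 gave 3 genes. With an unadjusted P under 0.05, 2 members were higher, against 1.96% of all genes, and 0 were lower, against 2.08%. The members' median log2 fold change was 0.42, against -0.01 over all genes. *Il1r1*, *Il1rap* and *Il33* were at 0.01, 0.00 and 0.04. The median also rests on *Il1b* (1.50, SE 1.75), *Il18* (1.11, SE 1.41) and *Il1a* (0.34, SE 0.72). These had few counts and an SE above their value, so the median does not show a shift of the family. Without wounded replicate 2 labelled GRHL3 KO the log2 fold changes were 0.82 for *Il1r2* and 0.47 for *Il1rn*. Over the fits without any single wounded library they were 0.73 to 0.95 for *Il1r2* and 0.38 to 0.65 for *Il1rn*. Which of these members had an unadjusted P under 0.05, if any, changed with the library left out. Of the 10 keratinocyte markers, 2 were also higher here with an unadjusted P under 0.05, the differentiation keratins *Krt10* (0.87 on the log2 scale, SE 0.16, adjusted p = 0.459) and *Krt1* (0.77, SE 0.20, adjusted p = 1). *Krt10* was above every WT library in every library labelled GRHL3 KO, and *Krt1* overlapped. The erythroid marker *Alas2*, on few counts, was likewise above, at 0.394 to 0.91 CPM against 0 to 0.36 CPM. That order was met by 3.07% of all genes. In the Langerhans and dendritic list 2 markers were lower, *Epcam* (-0.58, SE 0.22, adjusted p = 1) and *Mfge8* (-0.86, SE 0.33, adjusted p = 1), and *Epcam* and the sum of that list were below every WT library in every library labelled GRHL3 KO. After wounding in WT, *Krt10* (-0.45, SE 0.16, adjusted p = 0.843) and *Krt1* (-0.66, SE 0.20, adjusted p = 0.693) were lower. Those WT wounds are the reference here. The part of these markers in the values of *Il1r2* and *Il1rn* was not tested. This comparison shares the WT wounded libraries with the WT wound comparison.

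**Figure D2:**
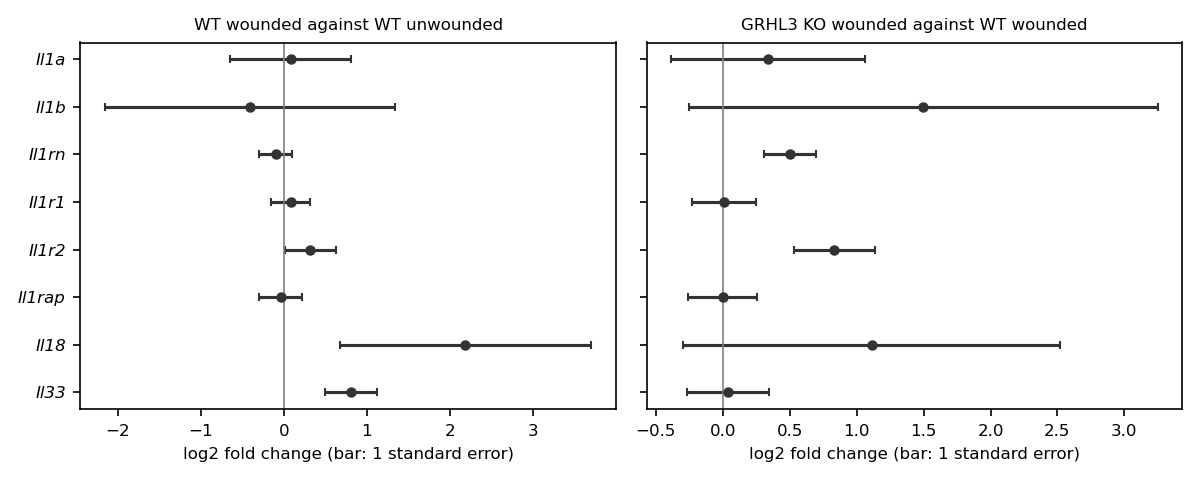
Fitted log2 fold change of each member (horizontal axes, points, with bars of 1 standard error) for WT wounds against WT unwounded skin on the left and for wounds labelled GRHL3 KO against WT wounds on the right. *Il33* lies at 0.81 on the left, and *Il1r2* and *Il1rn* lie at 0.83 and 0.50 on the right, while *Il1b* and *Il18* have the widest bars.

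Over both genotypes, with genotype as a term in the fit, 4 wounded libraries were set against 3 unwounded ones. An adjusted p under 0.05 by edgeR was reached by 0 of 8 members, against 5 genes (0.0356%), and DESeq2 gave 126 genes. With an unadjusted P under 0.05, 0 members were higher, against 3.69% of all genes, and 0 lower, against 2.93%. The corresponding count by DESeq2 was 2 higher, *Il18* and *Il33*, against 4.5% of all genes, and 0 lower, against 3.07%. All wounded libraries lay above all unwounded ones in CPM for 1 member, *Il18*, against 2.74% of all genes. Without the unwounded library labelled GRHL3 KO, 0 genes had an adjusted p under 0.05 by edgeR and 1 member, *Il33*, was higher with an unadjusted P under 0.05, against 3.31% of all genes.

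A comparison of the libraries labelled GRHL3 KO with WT over both treatments was added after the members' values were seen, and its P values support nothing beyond a description. All 3 libraries labelled GRHL3 KO lay above all 4 WT libraries in CPM for 2 members, *Il1rn* and *Il1r2*, against 3.07% of all genes. The markers *Krt10* and *Alas2* showed the same order. An adjusted p under 0.05 by edgeR was reached by 0 of 8 members and 0 genes (0%), and DESeq2 gave 91 genes, both of these members among them. With an unadjusted P under 0.05, 2 members were higher, against 4.22% of all genes, and 0 lower, against 4.04%. Without the unwounded library labelled GRHL3 KO the same 2 members were higher, against 1.94% of all genes. With 4 libraries on one side and 3 on the other, the smallest two-sided p of an exact permutation test is 0.0571.

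The wound response labelled GRHL3 KO has 1 unwounded library and no replicate check there, and no test was run. A 2-fold rule was used, which asks both wounded libraries to differ at least 2-fold from the unwounded one in the same direction. By it 0 members were higher, against 5.69% of all genes. Likewise 0 members were lower, against 3.89%. Whether the wound response of any member differed between the genotypes was not tested.

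*Il1a*, the ligand that keratinocytes hold ready for release, was scarce. Its counts were 48 and 33 in WT unwounded, 49 and 36 in WT wounded, 35 in the unwounded library labelled GRHL3 KO and 61 and 36 in its wounded counterparts. These correspond to 1.96 to 4.01 CPM, and the groups overlapped. The log2 fold change was 0.08 after wounding in WT (SE 0.73, adjusted p = 1) and 0.34 between the wounded groups (SE 0.72, adjusted p = 1). A change of 2-fold is 1 on this scale and lies within 2 standard errors of either value.

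*Il1b*, the ligand whose precursor is cut by caspase-1, was lower still. Its counts were 11 and 4 in WT unwounded, 3 and 8 in WT wounded, 16 in the unwounded library labelled GRHL3 KO and 8 and 21 in the wounded ones. The highest counts came from libraries labelled GRHL3 KO, yet wounded 1 with that label, at 8 counts, equalled WT wounded 2. The log2 fold change was 1.50 between the wounded groups (SE 1.75, adjusted p = 1) and -0.41 after wounding in WT (SE 1.75, adjusted p = 1). An antisense gene that overlaps it, *Il1bos*, had 0 to 34 counts. The strand of counting is not stated, so reads of the overlap cannot be assigned to either gene.

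*Il1rn*, the antagonist that competes with the ligands for the receptor, was among the more abundant members in every library. It was at 85.2 and 63.5 CPM in WT unwounded, 62.3 and 74.4 CPM in WT wounded, 120 CPM in the unwounded library labelled GRHL3 KO and 90.8 and 100 CPM in its wounded counterparts. All 3 libraries labelled GRHL3 KO lay above all 4 WT libraries, and WT wounded and unwounded overlapped. Between the wounded groups the log2 fold change was 0.50 (SE 0.20, adjusted p = 1). Over both treatments it was 0.60 (SE 0.15, adjusted p = 0.257), and 0.50 without the unwounded library labelled GRHL3 KO (adjusted p = 0.999). DESeq2 gave an adjusted p = 0.0393 over both treatments, and the range over all alternatives was 0.0117 to 0.999. After wounding in WT it was -0.10 (SE 0.20, adjusted p = 1).

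*Il1r1* encodes the receptor that carries the IL-1 signal. It was at 44.6 and 32.8 CPM in WT unwounded, 44.9 and 35.8 CPM in WT wounded, 45.8 CPM in the unwounded library labelled GRHL3 KO and 34.9 and 45.2 CPM in the wounded ones. The replicated groups overlapped, each with 1 library at 32.8 to 35.8 CPM and 1 at 44.6 to 45.2 CPM. The unwounded library labelled GRHL3 KO, at 45.8 CPM, was narrowly above all others. As a log2 fold change the difference was 0.08 after wounding in WT (SE 0.24, adjusted p = 1) and 0.01 between the wounded groups (SE 0.24, adjusted p = 1).

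*Il1r2* encodes the decoy, which binds IL-1 without passing on a signal. It was at 17.9 and 9.58 CPM in WT unwounded, 18.3 and 15.5 CPM in WT wounded, 42.3 CPM in the unwounded library labelled GRHL3 KO and 28.7 and 30.7 CPM in its wounded counterparts. The unwounded library with that label was the highest of the 7, the wounded pair came next, and no WT library reached them. Between the wounded groups the log2 fold change was 0.83 (SE 0.30, adjusted p = 1), and it was 0.73 to 0.95 over the alternatives run, with adjusted p from 0.44 to 1. Over both treatments it was 1.18 (SE 0.25, adjusted p = 0.169), and 0.84 without the unwounded library labelled GRHL3 KO (adjusted p = 0.999). DESeq2 gave an adjusted p = 0.00685, the fit without WT wounded 1 gave 0.0495, and the range over all alternatives was 6.1e-05 to 0.999. After wounding in WT it was 0.32 (SE 0.31, adjusted p = 0.998).

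*Il1rap* encodes the chain that IL-1 and IL-33 receptors share. It was at 22.2 and 32.1 CPM in WT unwounded, 24.1 and 27.8 CPM in WT wounded, 39.9 CPM in the unwounded library labelled GRHL3 KO and 25.9 and 25.2 CPM in the wounded ones. Apart from that unwounded library, which was the highest, the groups overlapped. As a log2 fold change the difference was -0.04 after wounding in WT (SE 0.26, adjusted p = 1) and 0.00 between the wounded groups (SE 0.26, adjusted p = 1).

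*Il18*, a ligand with its own receptor pair, had few counts. These were 0 and 9 in WT unwounded, 13 and 26 in WT wounded, 10 in the unwounded library labelled GRHL3 KO and 64 and 14 in the wounded ones. In CPM they were 0, 0.535, 0.781, 1.69, 0.741, 4.2 and 0.98 in that order, so every wounded library was above every unwounded one, by a small margin for WT wounded 1 over the unwounded library labelled GRHL3 KO. The endothelial marker sum was likewise higher in every wounded library. So were 4 of 8 endothelial markers, 2 of 7 fibroblast markers (*Dcn* and *Col1a2*), and 1 each of the macrophage (*Lyz2*), dendritic (*H2-Aa*) and melanocyte (*Dct*) lists, against 2.74% of all genes. Of the markers, 4 of hair follicles, *Mitf* and the fibroblast marker *Pdgfra* were lower in every wounded library, an order whose share over all genes was not counted. Their part in this difference was not tested. As a log2 fold change the difference was 2.19 after wounding in WT (SE 1.52, adjusted p = 0.986) and 2.03 over both genotypes (SE 1.15, adjusted p = 0.809), or 2.196 without the unwounded library labelled GRHL3 KO (SE 1.48, adjusted p = 0.998). Between the wounded groups it was 1.11 (SE 1.41, adjusted p = 1), and -0.33 without wounded replicate 1 labelled GRHL3 KO (adjusted p = 1, against 0.981 to 1 over the alternatives).

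*Il33*, a nuclear alarmin that signals through IL1RL1, was at 53.7 and 47.3 CPM in WT unwounded, 48 and 126 CPM in WT wounded, 81.6 CPM in the unwounded library labelled GRHL3 KO and 78.6 and 98.2 CPM in its wounded counterparts. WT wounded 1 lay between the WT unwounded libraries, and WT wounded 2 was the highest of all. That library also had the higher marker sums of the WT wounded pair for fibroblasts, at 47.8 against 19.6 CPM, and for neutrophils, at 28.3 against 8.47 CPM, and their part in the split was not tested. The log2 fold change after wounding in WT was 0.81 (SE 0.31, adjusted p = 0.894). It was 1.34 without WT wounded 1 (adjusted p = 0.00886) and -0.066 without WT wounded 2 (adjusted p = 0.997), with adjusted p from 0.00886 to 1 over all alternatives, and 0.0179 with no expression filter. Between the wounded groups it was 0.04 (SE 0.31, adjusted p = 1), -0.49 without WT wounded 1 and 0.91 without WT wounded 2. The study lists *Il33* among its wound genes, chosen on these libraries, so that listing is not independent evidence.

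The other ligands of the family, the IL-36 cytokines and their antagonist, act through IL1RL2. Of 5 listed, 4 were tested and *Il1f10* was at 0 in every library. With an unadjusted P under 0.05, none was higher after wounding in WT, against 3.18% of all genes, and 2 were higher in wounds labelled GRHL3 KO, against 1.96%. The latter count was 1 by DESeq2, *Il1f9*, against 1.99%. Over both genotypes *Il1f8* was the 1 higher gene, against 3.69% of all genes, and over both treatments *Il1f5*, against 4.22%. Without the unwounded library labelled GRHL3 KO there was none in the former, against 3.31%, and *Il1f9* in the latter, against 1.94%. By edgeR this and the other pathway lists had 0 adjusted calls in any comparison. DESeq2 gave 3 such calls over all lists and comparisons, *Capn2*, *Il24* and *Ccl20*, each given with its gene group. *Il1f9* (IL-36 gamma) was at 7.49 and 24.2 CPM in WT unwounded, 4.8 and 13 in WT wounded, 5.63 in the unwounded library labelled GRHL3 KO and 21.7 and 17.9 CPM in the wounded ones. Both wounded libraries labelled GRHL3 KO were above both WT wounded libraries, by a log2 fold change of 1.18 (SE 0.50, adjusted p = 1), yet WT unwounded 2 was the highest of all. *Il1f5*, the IL-36 receptor antagonist, was at 4.65, 2.92, 4.68, 4.09, 12.5, 5.91 and 11.6 CPM in the same library order. Every library labelled GRHL3 KO was above every WT one, higher by 1.003 on the log2 scale between the wounded groups (SE 0.47, adjusted p = 1). *Il1f5* is in the study's own list of wound genes for the mutant, chosen on these libraries. *Il1f6* and *Il1f8* (IL-36 alpha and beta) had 0 counts in the 3 unwounded libraries and at most 0.91 and 1.12 CPM in the wounded ones. By the 2-fold rule 3 of the 4 were higher in wounds labelled GRHL3 KO, namely *Il1f6*, *Il1f8* and *Il1f9*, against 5.69% of all genes, and the first pair had 0 counts in the unwounded library.

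Of 8 other receptors and binding proteins, 4 were tested, and *Il1rapl1* and *Il1rapl2* were at 0. *Il1rl2*, the IL-36 receptor, was the most abundant, at 71.1 to 96.9 CPM. *Il18r1*, the IL-18 receptor chain, was at 5.88 and 5.06 CPM in WT unwounded, 10.7 and 10.8 in WT wounded, 7.26 in the unwounded library labelled GRHL3 KO and 3.42 and 5.25 CPM in the wounded ones. Both WT wounded libraries were the highest of the 7. After wounding in WT it was the 1 higher gene of this list with an unadjusted P under 0.05, against 3.18% of all genes, and none was lower. It was higher by 0.996 (SE 0.42, adjusted p = 0.952). In wounds labelled GRHL3 KO it was the 1 gene lower, against 2.08%, at -1.29 on the log2 scale (SE 0.43, adjusted p = 1). Both values share the WT wounded libraries, and the study lists *Il18r1* among its wound genes. Over both genotypes and over both treatments 0 genes of this list had such a P by edgeR or DESeq2. By edgeR the shares over all genes were 3.69% higher and 2.93% lower in the former, and 4.22% and 4.04% in the latter. Without the unwounded library labelled GRHL3 KO, *Il18r1* was higher in the former, against 3.31% of all genes, and lower in the latter, against 2.07%. *Sigirr*, at 0 to 2.44 CPM, was the 1 gene lower by the 2-fold rule, against 3.89% of all genes.

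Genes for processing and release of IL-1 gave 16 tested of 19, with *Nlrp3*, *Nlrc4* and *Gsdma2* at 0. *Capn1*, a calpain, had the highest mean, at 219 CPM, though *Capn2* was above it in both WT wounded libraries. After wounding in WT 1 gene was higher and 1 lower with an unadjusted P under 0.05, against 3.18% and 1.67% of all genes. The list's median log2 fold change was -0.05, against 0.00 over all genes. The higher one was *Capn2*, the calpain chain that can cut pro-IL-1 alpha, at 180 and 204 CPM in WT unwounded, 244 and 258 in WT wounded, 97 in the unwounded library labelled GRHL3 KO and 234 and 171 CPM in the wounded ones. WT wounded libraries were above WT unwounded ones, by a log2 fold change of 0.41 (SE 0.18, adjusted p = 0.984). The lower one was *Pycard*, the inflammasome adaptor, with a log2 fold change of -0.57 (SE 0.26, adjusted p = 0.984). Over both genotypes *Capn2* and *Gsdmc* were the 2 higher genes, against 3.69% of all genes. The log2 fold change of *Capn2* was 0.66 (adjusted p = 0.223 by edgeR and 0.0216 by DESeq2). By DESeq2 *Capn2* was the 1 gene with an unadjusted P under 0.05 in each of these wound comparisons, and neither *Pycard* nor *Gsdmc* was counted. Without the unwounded library labelled GRHL3 KO, *Capn2* was the 1 higher gene left, against 3.31% of all genes. Its log2 fold change there was 0.42, with an adjusted p = 0.959 by edgeR. In wounds labelled GRHL3 KO against WT wounds 0 genes passed, against 1.96% of all genes higher and 2.08% lower. Over both treatments *Capn2* and *Casp4* were the 2 lower genes in libraries labelled GRHL3 KO, against 4.04% of all genes. Without the unwounded one 0 were lower, against 2.07%. By the 2-fold rule *Casp4* and *Gsdmc* were higher, against 5.69% of all genes. *Casp1*, the IL-1 beta protease, was the 1 gene lower, against 3.89%, at 4.3 CPM before and 1.31 and 1.82 CPM after wounding.

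All 26 genes of receptor signalling were tested. By edgeR, 0 genes of this list had an unadjusted P under 0.05 in the WT wound comparison, against 3.18% of all genes higher and 1.67% lower. Between the wounded groups there were likewise 0, against 1.96% and 2.08%. The list's medians in these comparisons were 0.01 and 0.10 on the log2 scale. DESeq2 gave 1 such gene in the WT wound comparison, *Rela*, which was higher, against 3.56% of all genes, and 0 between the wounded groups. *Tnfaip3*, a brake on NF-kB, had the highest mean CPM of this list, at 907. Per kilobase of exon *Nfkbia* was higher, at a mean of 380 against 197 CPM per kilobase. Over both genotypes 1 gene was lower after wounding, against 2.93% of all genes. It was *Irak3*, which restrains MYD88 signalling, with a log2 fold change of -0.38 (SE 0.15, adjusted p = 0.6). *Tollip* and *Tnfaip3* were the 2 higher genes over both treatments in libraries labelled GRHL3 KO, against 4.22% of all genes. Without the unwounded library with that label, 0 genes of this list passed over both genotypes, against 3.31% of all genes higher and 1.71% lower. Over both treatments 0 passed, against 1.94% and 2.07%.

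Of 30 genes known as targets of IL-1, 27 were tested, and *Defb4* and *Nos2* were at 0. After wounding in WT 1 was higher and 2 were lower with an unadjusted P under 0.05, against 3.18% and 1.67% of all genes. The median log2 fold change was 0.20. Between the wounded groups 0 genes had such a P by edgeR, against 1.96% of all genes higher and 2.08% lower, with a median of 0.10. DESeq2 gave 1, *Cxcl3*, which was lower, against 1.97% of all genes. *Icam1*, a leukocyte adhesion molecule, had the highest mean CPM of this list, at 181. Per kilobase of exon *Cxcl1* was higher, at a mean of 87.4 against 71.5 CPM per kilobase. *Il24*, an IL-10 family cytokine, was at 3.81 and 2.44 CPM in WT unwounded, 9.37 and 14.9 in WT wounded, 0.445 in the unwounded library labelled GRHL3 KO and 10.4 and 10.6 CPM in the wounded ones. Every wounded library was above every unwounded one, as for the endothelial marker sum and the higher markers named with *Il18*. The log2 fold change was 1.98 after wounding in WT (SE 0.44, adjusted p = 0.221) and 2.69 over both genotypes (SE 0.49, adjusted p = 0.0683, and 1.83e-05 by DESeq2). The latter value was 1.98 without the unwounded library labelled GRHL3 KO (SE 0.42, adjusted p = 0.365).

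The 2 target genes lower after wounding in WT were *Lcn2*, an iron-binding antimicrobial protein, and *Ccl20*, a chemokine. *Lcn2* was at 47.2 and 67.4 CPM in WT unwounded, 26.8 and 34.1 in WT wounded, 4.96 in the unwounded library labelled GRHL3 KO and 35.2 and 38.4 CPM in the wounded ones. The WT groups did not overlap, with a log2 fold change of -0.89 (SE 0.24, adjusted p = 0.517), and the unwounded library labelled GRHL3 KO was far below the rest. *Ccl20* was at 50.4, 72.9, 42.3, 35, 11.9, 19.6 and 37 CPM in the same library order, with a WT log2 fold change of -0.65 (SE 0.28, adjusted p = 0.96). The study lists *Il24* and *Lcn2* among its own wound genes, so their direction here is not independent evidence.

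By the 2-fold rule, 10 of the 27 target genes were higher in wounds labelled GRHL3 KO, against 5.69% of all genes, and 0 were lower, against 3.89%. They were *Cxcl2*, *Cxcl3*, *Csf3*, *Il19*, *Il24*, *Tslp*, *Lcn2*, *S100a8*, *S100a9* and *Saa1*, a set that includes neutrophil attractants and antimicrobial proteins. All of these rest on the 1 unwounded library, in which *Cxcl2*, *Cxcl3*, *Csf3*, *Il19*, *S100a8*, *S100a9* and *Saa1* were at 0 counts. The list's median log2 difference was 1.16, or 1.15 with genes at 0 in a group set to the floor of 3 counts per library, against 0.00 over all genes. Over both genotypes 4 target genes were higher after wounding, *Cxcl3*, *Il24*, *Icam1* and *S100a8*, against 3.69% of all genes. DESeq2 gave 6, with *Csf3* and *Defb14* added, against 4.5%. Without that unwounded library *Il24* was the 1 higher gene by edgeR, against 3.31% of all genes, with *Ccl20* and *Lcn2* lower, against 1.71%. Over both treatments 6 were lower in libraries labelled GRHL3 KO, *Cxcl3*, *Ccl20*, *Ptgs2*, *S100a8*, *S100a9* and *Has2*, against 4.04% of all genes. Without that unwounded library it was *Cxcl3* alone of these, against 2.07%. With all libraries DESeq2 gave 5, all but *S100a9*, against 4.49%. DESeq2 gave an adjusted p = 0.0479 for *Ccl20* there, against 0.373 by edgeR. *S100a8* and *S100a9* are also in the neutrophil list. The sum of that list was lowest in the same unwounded library, as were those of the fibroblast, endothelial and T cell lists, while its hair follicle, melanocyte and leukocyte sums were the highest. Their part in the result was not tested.

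Over the 5 pathway lists together, 77 of 88 genes were tested. With an unadjusted P under 0.05, 3 were higher and 3 lower after wounding in WT, against 3.18% and 1.67% of all genes. In wounds labelled GRHL3 KO against WT wounds 2 were higher and 1 lower, against 1.96% and 2.08%. Over both genotypes 7 were higher and 1 lower after wounding, against 3.69% and 2.93%, and without the unwounded library labelled GRHL3 KO 3 were higher and 2 lower, against 3.31% and 1.71%. Over both treatments 3 were higher and 8 lower in libraries labelled GRHL3 KO, against 4.22% and 4.04%, and without that library 1 was higher and 2 lower, against 1.94% and 2.07%. By the 2-fold rule 15 were higher and 2 lower in wounds labelled GRHL3 KO, against 5.69% and 3.89%.

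The genes whose pattern over the 7 libraries was most like each member were taken by Pearson's r of log2 CPM among up to 8886 genes of moderate or higher level. With so many genes and 7 libraries, high values are reached by some genes for any pattern, and they are a description. *Il1r2* was most like *Atf3* (0.981) and *Tppp* (0.977), and *Il1rn* most like *Mapkbp1* (0.97) and *Lgals3* (0.96). For *Il1r1* the nearest were *Cacna1c* (0.998) and *Ccl27a* (0.984), and for *Il1rap* *Kif3b* (0.987) and *Scaf8* (0.979). Among the ligands, *Il33* was nearest *Gdnf* (0.966) and *Col7a1* (0.959), and *Il18* nearest *Ciao1* (0.988) and *Tep1* (0.981). *Il1a* was nearest *Ostf1* (0.987) and *Mfap1a* (0.962), and *Il1b* nearest *Clic3* (0.984) and *Ick* (0.977), on few counts of the member itself.

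Accessible chromatin near the members was read from the peaks that the authors called in 1 pooled library per condition, without replicates. The lists differed in length, with 10769 peaks for WT unwounded, 36872 for WT wounded, 29364 for unwounded labelled GRHL3 KO and 22474 for wounded with that label. A peak within 5 kb of the gene was listed for 3 of 8 members in WT unwounded, against 50.8% of annotated genes tested. In WT wounded it was 7 of 8, against 84.6%. For the libraries labelled GRHL3 KO it was 6 of 8 in unwounded, against 81%, and 7 of 8 in wounded, against 68.8%. List length and condition cannot be told apart in these counts, and with each list cut to the length of the shortest they were 3, 7, 4 and 4 members, against 50.8%, 45.1%, 47.5% and 45.4% of annotated genes tested. No peak lay near *Il1b* in any list.

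*Il1rn*, *Il1rap* and *Il1a* had a peak in every list. At *Il1rn* a peak over the gene start, within chr2:24336440-24337051 (mm10, as for all peaks here), had a fold enrichment of 4.72 in WT unwounded, 5.48 in WT wounded, 5.21 in unwounded labelled GRHL3 KO and 5.04 in wounded with that label. At *Il1rap* the peak over the start, within chr16:26581288-26582176, had a fold enrichment of 3.96, 5.59, 6.21 and 5.9 in the same order. The *Il1a* peak lay past the end of the gene, within chr2:129297124-129297558, with 5.38, 7.07, 5.87 and 6.36. The other receptors and alarmins had none in WT unwounded keratinocytes.

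*Il1r2* had 3 peaks in WT wounded and 1 in each library labelled GRHL3 KO. A peak just before the annotated gene start was listed in both wounded libraries, at chr1:40073619-40074063 with a fold enrichment of 6.91 in WT and at chr1:40073656-40074021 with 4.15 in the library labelled GRHL3 KO. A second one was listed at chr1:40085304-40085961 in WT wounded (4.05), ending within the 250 bases before the RefSeq start, and at chr1:40085591-40086106 in unwounded labelled GRHL3 KO (3.4), over that start. The third, in an intron at chr1:40092563-40092788, was in WT wounded alone of the 4 lists, with 4.46. With lists of the length of the shortest, *Il1r2* had 1 peak in WT wounded and 0 in both libraries labelled GRHL3 KO. With a fold enrichment of at least 4 the peak in unwounded labelled GRHL3 KO was lost. In RNA the library of that condition had the highest *Il1r2* level.

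**Figure D3:**
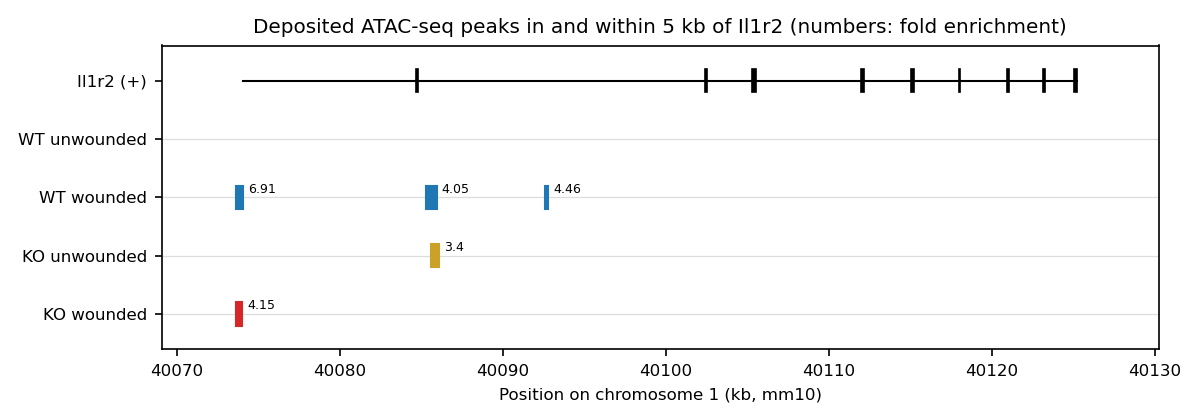
Deposited ATAC-seq peaks (boxes, with fold enrichment as numbers) along chromosome 1 (mm10, kilobases) in and within 5 kb of *Il1r2*, 1 line per condition, with the annotated gene and its exons on top (plus strand). The peak before the gene start is in both wounded libraries, at 6.91 and 4.15, and WT unwounded has none.

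*Il1r1* had 4 peaks in WT wounded, 4 in unwounded labelled GRHL3 KO and 3 in wounded with that label. The one over its start, within chr1:40224871-40225213, had a fold enrichment of 4.65, 4.11 and 3.52 in that order. *Il18* had 1 peak at its start in each wounded library, within chr9:50554752-50555036, with 5.42 in WT and 4.92 in the library labelled GRHL3 KO. *Il33* had 4, 2 and 1, of which an intron peak within chr19:29948102-29948640 was in all 3 lists, with 5.23 in WT wounded, 3.94 in unwounded labelled GRHL3 KO and 4.06 in wounded with that label. Its start peak at chr19:29924846-29925113 was in WT wounded alone, with 3.42. With lists of the length of the shortest, *Il1r1* had 1, 1 and 0 peaks and *Il33* 1, 0 and 0, in the order given first.

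The start regions of *Il1r1*, *Il1r2* and *Il33* are printed because a peak overlapping them was present in some conditions and not in others, and that of *Il1rn* was added after its values were seen because its RNA was higher in every library labelled GRHL3 KO and its start had a peak in all 4 lists. Each runs from 250 bases before to 50 bases after a RefSeq gene start on the plus strand (GRCm38.p6, the mm10 assembly), and all 8 members matched the RefSeq table. Motifs were searched on both strands as the GRHL core AACNNGTT, AP-1 TGANTCA, C/EBP TTGCNNAA and the NF-kB consensus by name, and capitals mark the matches. Of 32851 promoters of this length, 4.2% held the GRHL core, 7.81% AP-1, 10.8% C/EBP and 8.46% NF-kB. The *Il1rn* window, chr2:24336610-24336909, held 1 GRHL core match from base 87 and 1 AP-1 match from base 110. The first *Il1r1* window, chr1:40224830-40225129, held 1 C/EBP match from base 118. The second, chr1:40266336-40266635, which a peak overlapped in unwounded labelled GRHL3 KO alone while peaks began past its end in both wounded lists, held 1 NF-kB match from base 19, read on the minus strand. The *Il1r2* window, chr1:40085843-40086142, and the *Il33* window, chr19:29924863-29925162, held none of these letters. Among the windows not printed, that of *Il1b* held 1 GRHL core match, that of *Il1a* 1 AP-1 match and that of the second *Il33* start 1 C/EBP match. A match is a description of the sequence and not a site of binding.
Il1rn start: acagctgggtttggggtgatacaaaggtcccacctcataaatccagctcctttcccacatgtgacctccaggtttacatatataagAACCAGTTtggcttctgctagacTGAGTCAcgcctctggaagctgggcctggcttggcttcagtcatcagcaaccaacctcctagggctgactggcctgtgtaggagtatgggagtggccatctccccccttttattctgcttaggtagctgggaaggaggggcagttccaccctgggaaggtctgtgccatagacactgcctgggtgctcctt
Il1r1 first start: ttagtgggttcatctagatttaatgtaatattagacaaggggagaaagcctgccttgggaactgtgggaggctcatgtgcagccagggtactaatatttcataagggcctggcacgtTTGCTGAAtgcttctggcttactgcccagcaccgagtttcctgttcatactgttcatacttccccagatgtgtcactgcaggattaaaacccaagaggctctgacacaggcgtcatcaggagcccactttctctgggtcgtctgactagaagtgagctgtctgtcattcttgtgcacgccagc
Il1r1 second start: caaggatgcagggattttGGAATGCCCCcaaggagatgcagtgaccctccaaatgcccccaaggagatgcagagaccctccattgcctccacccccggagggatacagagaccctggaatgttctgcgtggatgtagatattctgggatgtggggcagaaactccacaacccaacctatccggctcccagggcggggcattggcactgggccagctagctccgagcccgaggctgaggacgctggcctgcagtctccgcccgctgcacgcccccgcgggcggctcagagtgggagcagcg
Il1r2 start: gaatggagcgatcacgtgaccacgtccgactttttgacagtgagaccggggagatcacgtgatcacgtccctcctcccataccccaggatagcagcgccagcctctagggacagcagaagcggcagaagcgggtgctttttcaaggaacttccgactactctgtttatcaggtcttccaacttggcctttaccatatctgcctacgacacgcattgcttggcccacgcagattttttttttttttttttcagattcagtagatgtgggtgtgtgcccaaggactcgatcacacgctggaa
Il33 start: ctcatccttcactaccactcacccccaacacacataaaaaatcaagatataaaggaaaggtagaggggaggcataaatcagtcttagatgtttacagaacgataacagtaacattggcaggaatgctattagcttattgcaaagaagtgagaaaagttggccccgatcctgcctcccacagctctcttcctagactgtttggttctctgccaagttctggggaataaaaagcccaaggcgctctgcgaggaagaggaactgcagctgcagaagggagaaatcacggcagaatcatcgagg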

How the data were processed

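RNA-seq was made from 7 libraries and ATAC-seq from 4. The authors deposited whole-number counts per gene symbol, without normalization, and per the labels FastQC and kallisto were used with mm10. Which step made the tables is not stated. For ATAC-seq the authors deposited MACS2 broad peaks, each with its fold enrichment above local background. Each deposited peak further has a -log10 p and a -log10 q.

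Tallies of reads on no gene were left out. edgeR 4.0.16 (TMM, filterByExpr) fitted all 7 libraries in 4 groups, and comparisons over both genotypes or both treatments used an additive fit. Quasi-likelihood F tests were two-sided with Benjamini-Hochberg adjustment over all 14045 genes, and were tested on simulated data. The SE given with an edgeR log2 fold change, also in the figure bars, was derived from the test. It is the absolute log2 fold change divided by the square root of the F statistic. The 2-fold rule used log2 CPM with a prior count of 2. Levels per kilobase used the exon union of the basic GENCODE set.

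The members and lists were chosen with earlier results of these data known. Named genes were the members, *Grhl3*, and pathway genes with an unadjusted P under 0.05 or past the 2-fold rule. Also named were the gene of highest mean CPM in each list and markers at 0. The 2 genes most like each member were named among those with a mean log2 CPM of at least 3. *Xist*, the Y-linked genes, *Il1bos* and the genotype comparison over both treatments were chosen after values were seen.

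Alternatives were RLE size factors, DESeq2 1.42.0, omitting the filter, a minimum of 10 counts in all libraries, a replicate block, the 4 libraries compared alone, each library left out, prior counts of 0.5 and 5, plain library sizes, exons of the full annotation (chosen after seeing the data), and other peak thresholds and windows. R 4.3.3, limma 3.58.1, Python 3.11.15, numpy 2.4.6, matplotlib 3.10.9 and samtools 1.23.1 were used.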

Additional observations from a re-analysis of the deposited data

Results flagged for a closer look

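In 8 of the 77 pathway genes tested, both WT wounded libraries lay on one side of both WT unwounded libraries in CPM, while both wounded libraries labelled GRHL3 KO lay on the opposite side of the unwounded library with that label. These are 10.4% of the genes of these lists, and the pattern was met by 1486 of all 14045 genes tested, or 10.6%, so it was no more frequent in the lists. The log2 fold change after wounding in WT was -0.65 for *Ccl20*, -0.89 for *Lcn2* and 0.996 for *Il18r1*. In the libraries labelled GRHL3 KO the log2 differences from the unwounded one were 0.74 and 1.58 for *Ccl20*, 2.82 and 2.87 for *Lcn2*, and -1.03 and -0.51 for *Il18r1*. The other 5 genes, named after their values were seen, had WT log2 fold changes of -0.66 for *Gsdma*, -0.28 for *Mapk14*, -0.15 for *Zc3h12a*, -0.11 for *Map3k7* and 0.19 for *Mapk9*. For *Mapk14* the margin in wounded 2 labelled GRHL3 KO was lost after TMM normalization, at a log2 difference of -0.0058. The difference between the genotypes in the wound response was not tested for any of these genes. It rests on 1 unwounded library labelled GRHL3 KO, which also differs from the others in *Xist* and Y-linked counts. No member of the core family showed this pattern.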

How the results depend on the processing

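Over all comparisons and alternatives, 303 fold changes of single genes kept their direction and side of the threshold, 7 passed it and 32 changed sign, and 99 counts stayed within 1.5 times while 47 moved. The cause was not tested except where fewer libraries or genes entered the fit. The numbers of genes with an adjusted p under 0.05 were 24 (WT wound), 3 (wounded GRHL3 KO against WT), 126 (wound over both genotypes) and 91 (genotype, added later) by DESeq2, and 96, 51, 305 and 323 with no filter. Members with an unadjusted P under 0.05 for the wound over both genotypes were 2 by DESeq2 and 1 with no filter. With at least 10 counts in every library, genes with an adjusted p under 0.05 were 0 for the WT wound and 2 over both genotypes. The *Il1rap* log2 fold change between the wounded groups was then -0.0012. With the replicate block, 36 genes passed for the wound over both genotypes, with log2 fold changes of 0.038 for *Il1r1* and 0.073 for *Il1r2*. Whether libraries with one number share an animal or a day is not stated, but by *Xist* and Y-linked counts the unwounded library labelled GRHL3 KO came from another animal than its wounded counterparts. Across genes their deviations correlated at 0.154 (WT unwounded with WT wounded) and -0.0386 (both wounded groups). The block takes the unwounded library labelled GRHL3 KO as number 2, as titled, although its data are named as number 1. For the wound over both genotypes the block was genotype with number. It thus paired that library with wounded 2 of the same label, another animal by these counts. Wounded 1 with that label was alone in its block and did not inform the wound term. With the 4 libraries alone, 0 genes and 0 members passed in the WT wound comparison. Leaving out each library, genes ranged over 0 to 29 (WT wound, the highest without WT wounded 1), 0 to 21 (wounded groups, the highest without WT wounded 2), 0 to 119 (both genotypes, the highest without WT wounded 1) and 0 to 39 (both treatments, the highest without WT wounded 1), and members with an unadjusted P under 0.05 over 0 to 2, 0 to 2 and 0 to 1 in the first 3. The 2-fold rule gave 2567 to 2732 genes and 0 to 1 members, since a single wounded library loosens it. Log2 fold changes after wounding in WT ranged from -0.22 to 0.46 for *Il1a*, -1.35 to 0.57 for *Il1b*, -0.30 to 0.14 for *Il1rn*, -0.13 to 0.33 for *Il1r1*, -0.073 to 0.86 for *Il1r2*, -0.27 to 0.24 for *Il1rap*, -0.066 to 1.34 for *Il33* and 1.23 to 7.22 for *Il18*, the last without WT unwounded 2, which leaves 0 counts in that group, so that its value is no bound. Over both genotypes they ranged from -0.77 to 0.10 for *Il1b*, -0.17 to 0.086 for *Il1r1* and -0.31 to 0.32 for *Il1r2*. Between the wounded groups they ranged from -0.069 to 0.66 for *Il1a*, -0.15 to 0.17 for *Il1r1*, -0.11 to 0.12 for *Il1rap*, -0.33 to 1.82 for *Il18*, -0.49 to 0.91 for *Il33* and 0.64 to 2.44 for *Il1b*. A group left with 1 library was assumed to vary like the others. Peaks near members were 3 in WT unwounded and 8 in unwounded labelled GRHL3 KO with a fold enrichment of at least 4. With lists of the length of the shortest they were 8 in WT wounded, 6 in unwounded and 7 in wounded labelled GRHL3 KO, where 4 members had a peak. Within 20 kb they were 23 in unwounded labelled GRHL3 KO. With the exons of the full annotation, the levels per kilobase of *Il1rn* and *Il1rap* fell by more than 1 SD over the libraries and those of the other 6 members moved by less. Counts were lowest for *Il1a*, *Il1b* and *Il18*, with at most 64 in any library.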
